A study of Mus musculus with 2 samples.

Results

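The genes described here build and use the primary cilium, and 45 of them were listed by name, of which 44 are in the gene table used here and *Tctn2* was not analysed here. All 44 had UMIs in more than 3 cells, among 16673 genes of the series that did. They were read in single retinal cells of mouse embryos at E14.5 from the transgenic line Tg(Lhx4::EGFP)KN199Gsat/Mmucd, in which regulatory sequence of *Lhx4* carried on a bacterial artificial chromosome drives EGFP, so that GFP+ and GFP− cells carry the same transgene and the gate reports the transgene and not LHX4 protein. Embryos of 2 litters contributed to 1 pooled suspension, which was then sorted. Each gate gave 1 droplet library, so there were no replicates, no test between groups was made, and gate and library cannot be told apart.

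The primary cilium is a single antenna of microtubules that grows from the mother centriole of most vertebrate cells. Intraflagellar transport (IFT) trains carry cargo along it, with the IFT-B complex and kinesin-2 moving outward and the IFT-A complex and dynein-2 moving back, while the BBSome, a coat of 8 subunits here, sorts membrane proteins. In photoreceptors the cilium becomes the connecting cilium and the outer segment, which holds the light-sensing membranes, and inherited defects of many of these genes cause retinal degeneration. At the stage studied no outer segments have formed.

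The GFP+ library held 16010591 UMIs in 3728 cells and the GFP− library 46778924 UMIs in 4445 cells, a UMI (unique molecular identifier) standing for 1 captured transcript. After the quality filters 3689 GFP+ cells (median 3894 UMIs) and 3389 GFP− cells (median 8848 UMIs) were left, and the upper limit on genes per cell took most of the 23.8% of GFP− cells removed. Cells were placed in groups by how many distinct marker genes had a UMI. These were 3599 cone-marker GFP+ cells (97.6% of the kept GFP+ cells), and, in the GFP− library, 68 cone-marker, 1678 progenitor-marker, 687 neurogenic-marker, 528 retinal ganglion cell (RGC)-marker and 225 amacrine or horizontal cell (AC/HC)-marker cells. *Lhx4* stood at 142.8 CPM (UMIs per 1000000 UMIs of the group) in the cone-marker GFP+ cells, 91.9 CPM in the cone-marker GFP− cells and 0.0643 CPM in the progenitor-marker cells. The 7 cone markers, which set these groups, summed to 5186, 2661 and 4.82 CPM in the same order. Over the 6 groups the summed markers of other cells ranged from 1.47 to 5.41 CPM for blood, 0 to 11.9 CPM for pigment epithelium, 0 to 13.5 CPM for lens, 0.129 to 33.1 CPM for rods, 0.351 to 27.5 CPM for microglia and 2.70 to 362.7 CPM for endothelium. Of the listed markers *Rpe65*, *Crygs* and *Cdh5* had 0 UMIs in the kept cells of both libraries. In GFP+ cells 4 of 5 pigment epithelium and 2 of 3 lens markers had UMIs, and in GFP− cells 3 of 4 endothelium markers. The counts of 0 therefore do not show that such cells were absent. Rod, pigment epithelium and microglia markers were highest in the cone-marker GFP+ cells, where *Nrl* had 473, *Dct* 112 and *C1qa* 406 UMIs and *C1qb* and *Csf1r* had 0, and their part in the results below was not tested. A count of 20 barcodes occurred in both libraries.

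Promoter sequences of 5 members are shown first, 4 of members that were higher in the GFP+ cells and that of *Ift57*, which holds the letters typical of cilium genes. RFX transcription factors bind pairs of facing half-sites, called X-boxes, upstream of many cilium genes, and CRX and OTX2, which specify photoreceptors, bind TAATCC. The windows run from 250 bases before to 50 bases after the RefSeq gene start (build GRCm38.p6), are written 5′ to 3′ on the gene's strand, and lie at chr4:41569544-41569843 (plus strand) for *Dnaic1*, chr11:78345334-78345633 (plus strand) for *Unc119*, which has 3 windows, chr2:69646921-69647220 (plus strand) for *Bbs5*, chr19:4906578-4906877 (minus strand) for *Bbs1* and chr16:49699044-49699343 (plus strand) for *Ift57*. Of the 3 windows of *Unc119* the one with the most motif matches is shown. It belongs to a start inside the gene, which spans chr11:78343482-78349164, and is not sequence upstream of the whole gene. Capitals mark the pair of half-sites or half-site letters in *Dnaic1*, *Bbs5*, *Bbs1* and *Ift57*, and TAATCC, or its reverse complement, in *Unc119* and *Bbs1*.
Dnaic1: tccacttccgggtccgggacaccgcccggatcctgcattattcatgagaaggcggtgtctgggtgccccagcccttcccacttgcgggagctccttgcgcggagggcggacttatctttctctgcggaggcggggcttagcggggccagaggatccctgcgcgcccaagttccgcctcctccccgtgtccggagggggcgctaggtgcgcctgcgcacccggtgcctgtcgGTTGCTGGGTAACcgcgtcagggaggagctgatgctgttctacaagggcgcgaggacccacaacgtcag
Unc119: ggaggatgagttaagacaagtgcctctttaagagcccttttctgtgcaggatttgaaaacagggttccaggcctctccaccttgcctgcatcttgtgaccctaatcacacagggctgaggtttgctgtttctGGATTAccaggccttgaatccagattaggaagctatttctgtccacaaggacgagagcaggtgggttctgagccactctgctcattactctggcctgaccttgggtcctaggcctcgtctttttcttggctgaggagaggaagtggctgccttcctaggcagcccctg
Bbs5: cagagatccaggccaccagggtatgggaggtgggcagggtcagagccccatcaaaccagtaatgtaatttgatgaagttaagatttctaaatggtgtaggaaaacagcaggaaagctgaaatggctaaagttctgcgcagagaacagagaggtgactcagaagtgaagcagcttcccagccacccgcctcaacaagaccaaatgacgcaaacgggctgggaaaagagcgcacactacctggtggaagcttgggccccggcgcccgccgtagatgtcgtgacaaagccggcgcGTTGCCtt
Bbs1: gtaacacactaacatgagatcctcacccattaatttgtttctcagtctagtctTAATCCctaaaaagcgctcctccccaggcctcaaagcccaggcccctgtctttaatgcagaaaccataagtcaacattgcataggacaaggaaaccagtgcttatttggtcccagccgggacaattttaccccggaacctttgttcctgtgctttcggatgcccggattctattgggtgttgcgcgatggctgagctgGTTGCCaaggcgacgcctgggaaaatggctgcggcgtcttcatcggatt
Ift57: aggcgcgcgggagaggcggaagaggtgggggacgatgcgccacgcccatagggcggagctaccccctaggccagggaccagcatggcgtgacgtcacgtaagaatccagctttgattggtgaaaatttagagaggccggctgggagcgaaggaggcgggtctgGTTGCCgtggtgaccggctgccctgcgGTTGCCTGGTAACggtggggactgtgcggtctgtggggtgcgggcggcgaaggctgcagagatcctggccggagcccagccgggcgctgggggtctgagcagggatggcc

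Of the 44 members 39 had such a window, and 27025 genes had one in all. The half-site letters GTTGCC, on either strand, were found in the windows of 18 of the 39 members (46.2%) and of 14.1% of all genes. The stricter pair GTTNCC and GGNAAC, 0 to 3 bases apart, was found in 4 members (10.3%), *Bbs7*, *Ift57*, *Mks1* and *Tctn1*, and in 0.936% of all genes. A looser pair, GTTNCN and NGNAAC, which was written after the *Dnaic1* window had been read and overlaps the stricter one, was found in 7 members (17.9%) and in 3.08% of all genes. It lay 19 bases before the RefSeq start of *Dnaic1*. The gene span given below begins upstream of that start, at chr4:41569775, and holds the pair. The letters TAATCC on either strand were found in 2 members, *Bbs1* and *Unc119* (5.13%), and in 8.14% of all genes. Both are among the 7 members higher in GFP+ cells, and 0 of the 29 that passed in neither direction held TAATCC. These are only 2 genes, and the *Unc119* match lies in a window inside the gene. Of the 7 members higher in GFP+ cells, 2 held GTTGCC, against 15 of the 29 members that passed in neither direction, so these letters were not more frequent among the members that were higher. A match of letters is a description and no binding was measured.

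The first comparison asked how cilium genes differ between the sorted cone-enriched cells and the other retinal cells. The GFP+ cells held more transcripts of 5 of the 8 BBSome subunits, of the lipid-binding carrier *Unc119* and of the dynein intermediate chain *Dnaic1*, as shares of all UMIs, than the GFP− cells, and the IFT trains and their motors lay nearer to the typical gene. The ratio of CPM was taken on the log2 scale and centred on the median of all 13590 genes with at least 30 UMIs in the 2 groups, which was 0.30, and 2-fold after centring was used as a size limit without a test. Of the 43 members with that many UMIs, 7 were past 2-fold higher and 0 past 2-fold lower in GFP+ cells. Over all genes 14.9% were higher and 18.9% lower, so the share of members that were higher (16.3%) was near that of all genes, and the share lower was below it. Of the genes past 2-fold, 44.2% were higher with centring and 59.6% without it. The median of the members was 0.31 and 29 of 43 were above 0, with 5 that changed sign without centring. The remaining member, *Kif17*, a homodimeric kinesin-2, had 2 and 6 UMIs and could not be compared.

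*Dnaic1* (chr4:41569775-41638158, plus strand; gene positions are on GRCm38) codes for an intermediate chain of the outer dynein arms that drive motile cilia. It had 247.3 CPM (95% exact Poisson interval 239.5 to 255.3) in GFP+ and 1.56 CPM (1.15 to 2.08) in GFP− cells, a centred log2 ratio of 6.99 (6.59 to 7.45). *Unc119* (chr11:78343482-78349164, plus strand), which carries myristoylated proteins such as transducin to the cilium, had 880.2 CPM in GFP+ cells against 83.9 CPM, a ratio of 3.09 (3.03 to 3.15). The intervals of both genes did not overlap between the gates. Separation was common, as among all 13590 genes the interval of the centred ratio lay above 0 for 5268 and below 0 for 5437. Intervals cover counting error only, and fewer cells of a kind and less RNA per cell cannot be told apart in sums over a whole gate.

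Of the BBSome, which coats ciliary vesicles and lets membrane proteins leave the cilium, *Bbs5* (chr2:69647171-69667571, plus strand) had 33.7 CPM in GFP+ cells against 5.38 CPM, a centred log2 ratio of 2.34 (2.09 to 2.61). *Bbs4* (chr9:59321990-59353508, minus strand) had 65.1 and 14.1 CPM, a ratio of 1.91 (1.74 to 2.07). *Ttc8* (chr12:98920574-98983238, plus strand), also known as BBS8, had 77.0 and 19.0 CPM, a ratio of 1.72 (1.57 to 1.87). The smaller values of *Bbs1*, 12.6 against 3.56 CPM, and *Bbs2*, 14.8 against 4.19 CPM, gave a ratio of 1.52 for each. *Bbs7* and *Bbs9* were at 0.80 and 0.61, and *Bbip1*, the smallest subunit, was the only one of the 8 below 0, with 120.6 against 143.5 CPM and a ratio of -0.55.

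The 5 lowest members were *Arl3* (-0.99), a small GTPase that unloads lipid-modified cargo inside the cilium, *Ift74* (-0.82) and *Ift27* (-0.81) of IFT-B, *Dync2h1* (-0.59), the heavy chain of dynein-2, and *Bbip1*. *Arl3* had 88.3 CPM in GFP+ cells against 142.8 CPM. None of these was past 2-fold as reported. *Arl3* passed it without the upper limit on genes per cell, where 11 members were higher and 1 lower. Of all genes past 2-fold under that setting 43.2% were higher, and the share of all genes that passed is not given here. It also passed it with TMM factors, with thinned cells and with a minimum of 100 UMIs.

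To set cones against progenitors, cone-marker GFP+ cells were compared with progenitor-marker GFP− cells. Neurogenic-marker cells were not among the latter, and no ratio was taken against them. The comparison shares most of its GFP+ cells with the first and is no independent support of it. Here 7 of 43 members were higher (16.3%) and 3 lower (6.98%), against 18.5% and 20.0% of 12926 genes. The genes past 2-fold were 48.1% higher with centring on the median of 0.40 and 65.8% higher without it. Without centring 14 members were higher and 0 lower, the 7 more being *Ift20*, *Ift46*, *Ift81*, *Cep290*, *Mks1*, *Tctn1* and *Dync2li1*. The median of the members was 0.21.

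**Figure D1:**
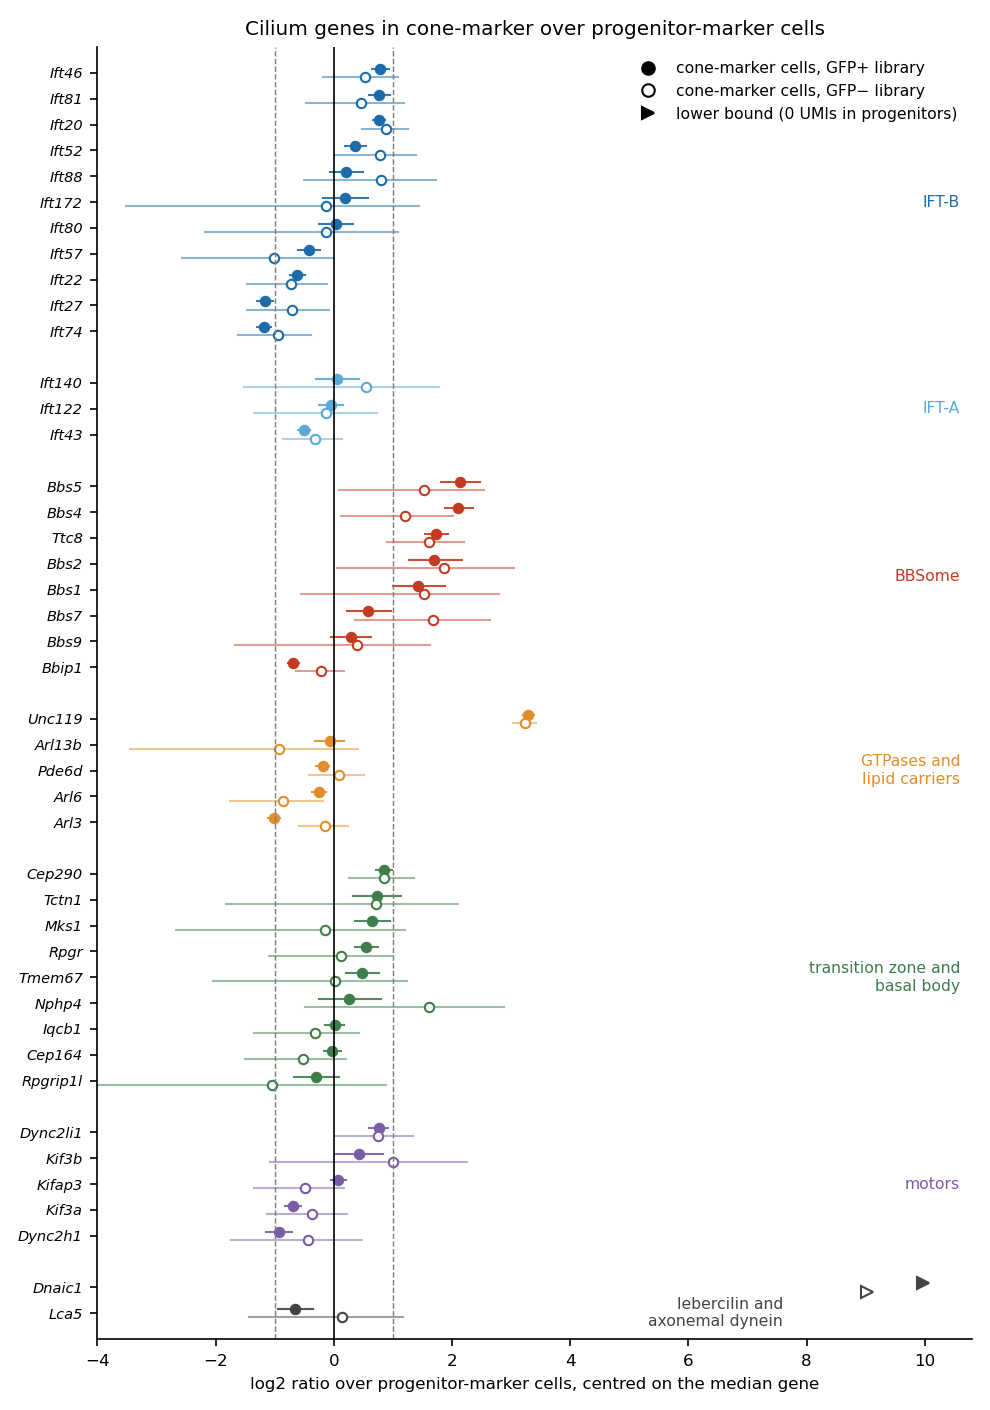
Centred log2 ratio of CPM (x axis) for each cilium gene (y axis, ordered by role) in cone-marker GFP+ cells (filled) and cone-marker GFP− cells (open) over progenitor-marker GFP− cells, with 95% intervals that cover counting error, triangles for lower bounds and dashed lines at 2-fold. *Bbs1*, *Bbs2*, *Bbs4*, *Bbs5*, *Ttc8*, *Unc119* and *Dnaic1* lie to the right of the upper dashed line in both, and most IFT and motor genes lie between the lines.

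*Dnaic1* had 3808 UMIs in the cone-marker GFP+ cells (254.9 CPM) and 0 UMIs in 15555877 UMIs of progenitor-marker cells. There 3 counts would be 0.193 CPM, and 254.9 CPM is 1322 times that limit without centring. As a centred log2 ratio this bound is 9.97, and it leaves out the counting error of the cone-marker sum. *Dnaic1* had a UMI in 56.4% of the cone-marker GFP+ cells (2029 of 3599, median 3882 UMIs per cell). It had none in the 1678 progenitor-marker (median 9334 UMIs), 528 RGC-marker and 225 AC/HC-marker cells, and 2 UMIs in 2 of the 687 neurogenic-marker cells. With each cell thinned to 3200 UMIs the share was 50.4% (48.6 to 52.2%, exact Clopper-Pearson) in cone-marker GFP+ cells and 22.6% (12.9 to 35.0%) in cone-marker GFP− cells. These 2 groups come from different libraries and were not compared over all genes. *Dnaic1* was therefore read in cone-marker cells of both gates, and in at most 0.291% of the cells of the progenitor-marker, neurogenic-marker, RGC-marker and AC/HC-marker groups. Its neighbour *Enho*, which shares exon bases with it on the opposite strand, had 104.4 CPM in cone-marker GFP+ cells, 62.2 CPM in cone-marker GFP− cells and 12.2 CPM in progenitor-marker cells, and whether strand was used in counting is not given in the sources used here.

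*Unc119* had 902.6 CPM (887.5 to 918.0) in cone-marker GFP+ cells and 69.7 CPM (65.6 to 74.0) in progenitor-marker cells, a centred log2 ratio of 3.29. At 3200 UMIs per cell it had a UMI in 92.3% of cone-marker GFP+, 85.5% of cone-marker GFP− and 19.5% of progenitor-marker cells. Unlike *Dnaic1* it was thus read in every group, at 66.1 CPM in neurogenic-marker, 83.7 CPM in AC/HC-marker and 92.2 CPM in RGC-marker cells.

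*Bbs5* had 519 UMIs (34.7 CPM) in cone-marker GFP+ and 93 UMIs (5.98 CPM) in progenitor-marker cells, a ratio of 2.13 (1.81 to 2.47), and *Bbs4* 66.1 and 11.6 CPM, a ratio of 2.11. *Ttc8* had 78.3 and 17.8 CPM (1.73), *Bbs2* 15.0 and 3.47 CPM (1.70) and *Bbs1* 12.9 and 3.60 CPM (1.42). The interval of *Bbs1* ended at 1.89 above and just under the 2-fold line below. On the opposite strand, exon bases of *Bbs4* are shared with *Adpgk* and those of *Bbip1* with *Shoc2*. Summed over the 8 subunits the BBSome had 352.3 CPM in cone-marker GFP+ cells, 313.7 CPM in cone-marker GFP− cells, and 173.2 to 205.5 CPM in the 4 other groups. *Bbip1* had 146.4 CPM in progenitor-marker and 120.4 CPM in cone-marker GFP+ cells (-0.68), so the subunits did not move together.

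**Figure D2:**
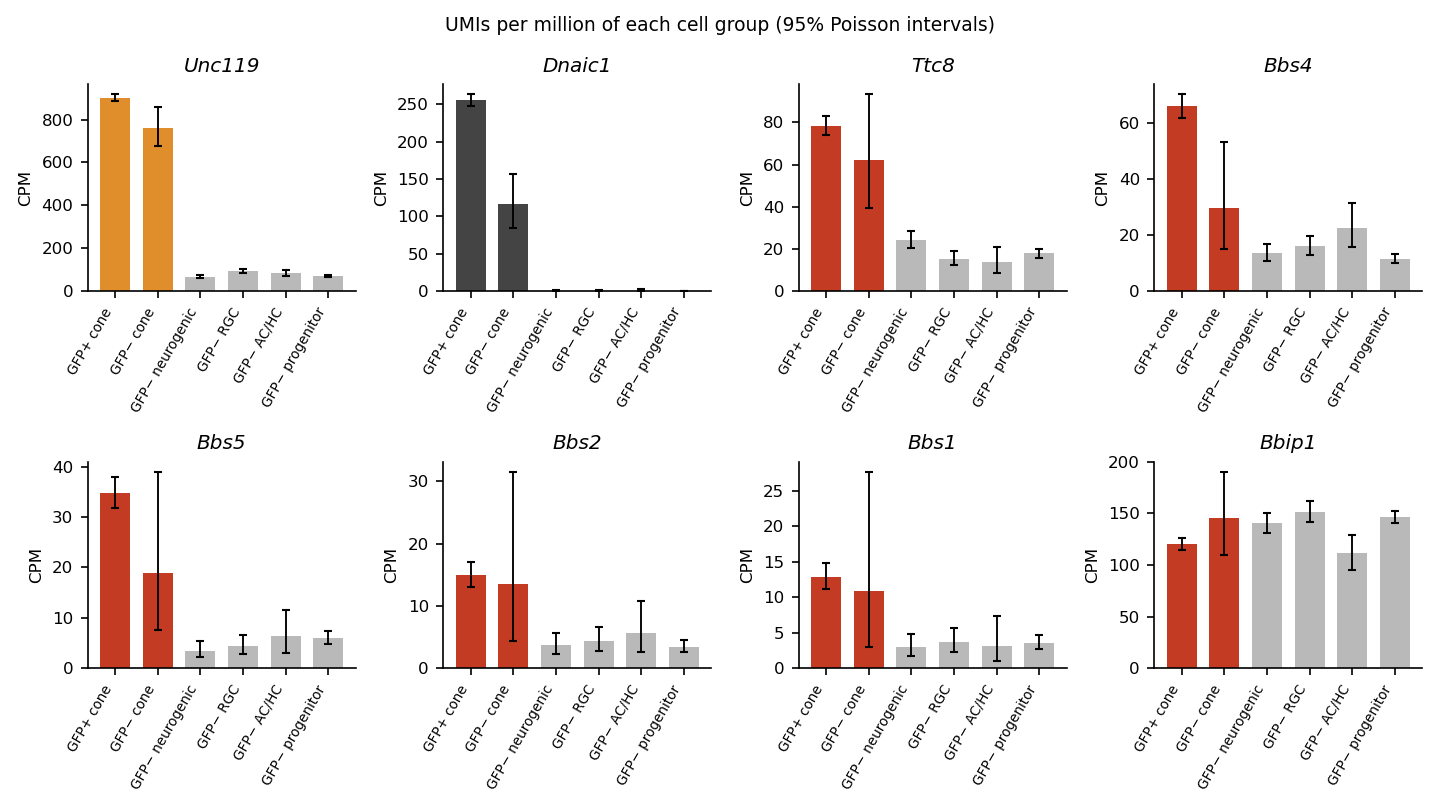
CPM (y axis, from 0) of *Unc119*, *Dnaic1* and 6 BBSome subunits in 6 marker groups, with bars for the value and lines for 95% exact Poisson intervals. *Dnaic1* stands at 254.9 and 116.3 CPM in the cone-marker cells and at 0 in progenitor-marker cells, while *Bbip1* lies between 111.5 and 151.5 CPM in all 6 groups.

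In IFT-B, *Ift20*, which links the trains to the Golgi, stood at 168.2 CPM in cone-marker GFP+ and 74.7 CPM in progenitor-marker cells (0.77). *Ift46* (0.79) and *Ift81* (0.77) lay close to it. *Ift74* (chr4:94614491-94693229, plus strand), the partner of *Ift81* in binding tubulin, had 63.4 CPM in cone-marker GFP+ and 109.0 CPM in progenitor-marker cells, a ratio of -1.18 (-1.30 to -1.07). *Ift27* (chr15:78159463-78174107, minus strand), a GTPase that helps the BBSome leave the cilium, had 43.3 and 73.5 CPM, a ratio of -1.17 (-1.31 to -1.03). Partners of the same complex thus lay on opposite sides of the typical gene, and the IFT-B median was 0.19 with 7 of 11 genes above 0.

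The 3 IFT-A genes lay within 2-fold, from -0.50 for *Ift43* (98.4 against 105.4 CPM) to 0.06 for *Ift140*. *Arl3* (chr19:46531096-46573198, minus strand) had 86.8 CPM in cone-marker GFP+ and 131.8 CPM in progenitor-marker cells, a ratio of -1.01 (-1.11 to -0.91). *Arl6*, which brings the BBSome to membranes, *Arl13b*, the exchange factor of *Arl3*, and *Pde6d*, a carrier of prenylated proteins, lay between -0.25 and -0.07. Among these carriers and GTPases only *Unc119* was therefore above 0 with centring. Without it 6 members changed sign in this comparison, among them *Arl6*, *Arl13b* and *Pde6d*.

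The 9 transition zone and basal body genes, which build the gate at the cilium's base, lay between -0.29 (*Rpgrip1l*) and 0.85 (*Cep290*), with a median of 0.48 and 7 of 9 above 0. *Cep290*, mutated in a form of Leber congenital amaurosis, had 93 CPM (88.2 to 98.0) in cone-marker GFP+ and 39.1 CPM (36.0 to 42.3) in progenitor-marker cells. On the opposite strand, exon bases of *Cep290* are shared with *4930430F08Rik* and those of *Tctn1* with *Hvcn1*. None of the 9 was past 2-fold with centring, and *Cep290*, *Mks1* and *Tctn1* were without it.

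Of the motors, *Kifap3*, the adaptor of kinesin-2, had 75.3 CPM in cone-marker GFP+ and 53.9 CPM in progenitor-marker cells (0.08). The lowest were *Dync2h1* with 18.5 and 26.6 CPM (-0.92) and *Kif3a*, a kinesin-2 motor subunit, with 50.5 and 61.6 CPM (-0.69). *Dync2li1*, a light intermediate chain of dynein-2, was at 0.76. *Lca5*, which codes for lebercilin, was at -0.65 with 11.5 and 13.7 CPM.

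These ratios compare shares of a cell's transcripts, and cone-marker GFP+ cells held fewer UMIs than progenitor-marker cells. Counted as UMIs per cell, without centring, 12 of the 43 members had more in cone-marker GFP+ cells. So did 3042 of all 12926 genes, a share near that of the members. On this scale 4 members were past 2-fold higher and 12 past 2-fold lower, against 7 and 3 by centred ratios. The share of all genes past 2-fold on this scale is not given here. *Unc119* had 3.75 UMIs per cone-marker GFP+ cell and 0.646 per progenitor-marker cell, and *Bbs4* had 0.274 and 0.107. *Ttc8* had 0.325 and 0.165 UMIs per cell, and like *Bbs1* and *Bbs2* stayed higher but within 2-fold on this scale. *Bbip1* had 0.50 and 1.36 UMIs per cell. More UMIs per cone-marker GFP+ cell were read for 5 of 8 BBSome, 3 of 11 IFT-B and 1 of 9 transition zone members. The median log2 ratio of all genes was -0.76 on this scale, and of the genes past 2-fold 19.8% were higher.

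**Figure D3:**
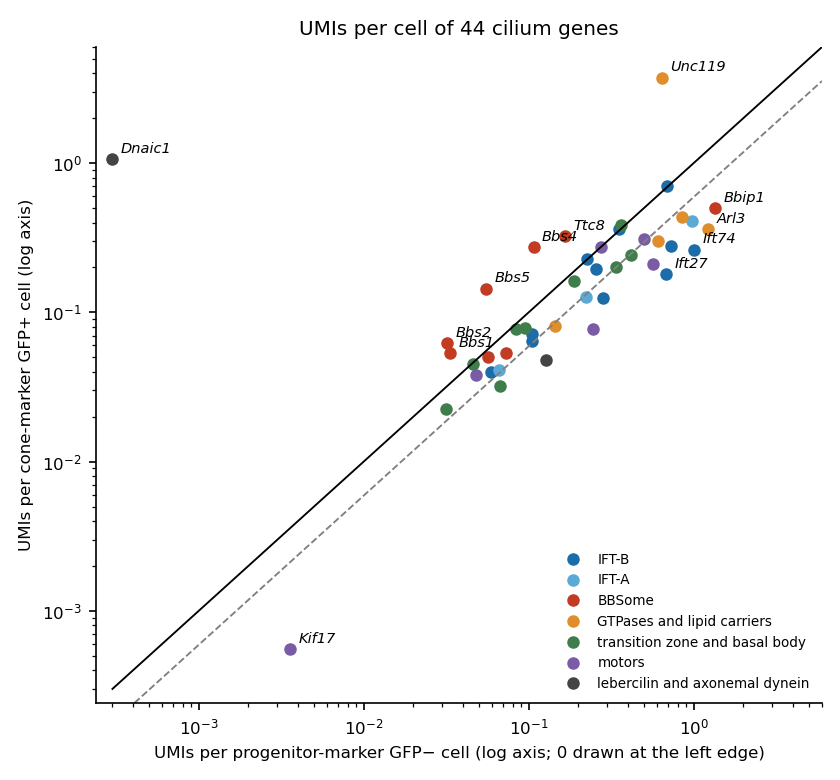
Mean UMIs per cell of each cilium gene in cone-marker GFP+ cells (y axis, log scale) against progenitor-marker GFP− cells (x axis, log scale), with a solid line where both are equal and a dashed line at the median gene. *Unc119* lies at 3.75 against 0.646 UMIs, and 12 of 43 genes with enough UMIs lie above the solid line. Of all 12926 genes with enough UMIs, which are not drawn, 3042 had more UMIs per cone-marker GFP+ cell.

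The 68 cone-marker cells of the GFP− library were set against the progenitor-marker cells of that same library, so that both groups shared 1 library. The gate still set which cone-marker cells fell in it. Here 9 of 43 members were higher and 2 lower, against 14.6% and 20.2% of 11385 genes, and 42.0% of the genes past 2-fold were higher with centring and 55.2% without. *Dnaic1* had 43 UMIs (116.3 CPM), which without centring is 603 times the limit of 3 counts in progenitor-marker cells. As a centred log2 ratio this bound is 9.02, again without the counting error of the cone-marker sum. *Unc119* had 282 UMIs (762.5 CPM, ratio 3.23) and *Ttc8* 23 UMIs (62.2 CPM, ratio 1.61). The values of *Bbs2* (1.87), *Bbs7* (1.68), *Bbs5* (1.53), *Bbs1* (1.52) and *Bbs4* (1.20), and of the transition zone gene *Nphp4* (1.60), rest on 4 to 11 UMIs each. *Rpgrip1l* (-1.05) with 1 UMI and *Ift57* (-1.01) with 6 UMIs were lower, and the intervals of *Bbs1*, *Nphp4*, *Ift57* and *Rpgrip1l* included 0. With a minimum of 100 UMIs *Bbs1*, *Bbs2*, *Nphp4* and *Dnaic1* had too few UMIs to be compared and *Ift57* was within 2-fold. With thinned cells *Bbs1*, *Bbs2*, *Dnaic1*, *Ift57*, *Nphp4* and *Rpgrip1l* were not past 2-fold or had too few UMIs, and with no minimum, which moves the median used for centring, *Bbs4* was within 2-fold.

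As reported, the 7 members past 2-fold higher in cone-marker GFP+ cells were also past it within the GFP− library, of which *Unc119*, *Ttc8* and *Bbs5* stayed past it under each of these 3 alternatives. The progenitor-marker cells are common to both comparisons. In CPM *Arl3* was not lower there, with 137.9 CPM (102.7 to 181.3) in cone-marker GFP− against 131.8 CPM in progenitor-marker cells and 86.8 CPM (82.1 to 91.6) in cone-marker GFP+ cells. Its centred ratio within the GFP− library was negative but within 2-fold, and changed sign without centring. *Dnaic1* stood at 116.3 CPM (84.1 to 156.6) in cone-marker GFP− cells, below the 254.9 CPM of cone-marker GFP+ cells. Cone-marker cells of the 2 libraries were not compared over all genes, so how common such a difference is was not tested. The progenitor markers summed to 356.9 CPM in the cone-marker GFP− cells and 48.7 CPM in the cone-marker GFP+ cells. In the same order the neurogenic markers summed to 473.2 and 249.6 CPM, and *Fabp7* stood at 1147 and 454.7 CPM. The part of these markers in the differences was not tested.

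Other neurons of the same library were compared with the progenitor-marker cells to show whether these genes also differ there. In RGC-marker cells 0 of 42 members were higher and 2 lower, against 13.5% and 14.1% of 11993 genes. *Ift74* had 38.8 CPM in RGC-marker and 109.0 CPM in progenitor-marker cells (-1.45), and *Dync2h1* 11.7 and 26.6 CPM (-1.13). The highest was *Kifap3*, with 91.9 against 53.9 CPM (0.81), and *Arl3* had 188.7 against 131.8 CPM (0.56). Of the transition zone genes 8 of 9 were below 0. In cone-marker cells 7 of 9 were above 0 in the GFP+ library, and 5 of 9, with a median of 0.02, in the GFP− library. Of 29 further transition zone and basal body genes, described below, 25 were below 0 in RGC-marker cells (median -0.64). In cone-marker cells 22 of the 29 were below 0 in the GFP+ library (median -0.50) and 23 in the GFP− library (median -0.62). The contrast between RGC-marker and cone-marker cells was thus not seen in the further genes. Without the upper limit on genes per cell *Dync2h1* was within 2-fold and *Kifap3* past it in RGC-marker cells.

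In AC/HC-marker cells 2 of 42 members were higher and 4 lower, against 14.3% and 19.0% of 11595 genes. *Kif3b*, the partner of *Kif3a*, had 13.9 against 5.21 CPM (1.37, from 22 UMIs) and *Ift46* 83.1 against 37.9 CPM (1.07). *Ift74* had 55.4 against 109.0 CPM, and *Ift80*, *Rpgrip1l* and *Ift140* were lower on 5 to 7 UMIs each, with intervals that included 0 for *Rpgrip1l* and *Ift140*. *Ift46* came within 2-fold without the upper limit on genes and with TMM factors, *Ift74* without centring, and *Ift74*, *Ift80* and *Rpgrip1l* with thinned cells. *Ift74* was below the progenitor-marker value in each of the 3 neuron classes, with 63.4, 38.8 and 55.4 CPM, and stood at 115.4 CPM in neurogenic-marker cells. The endothelium markers that were high in AC/HC-marker cells were mostly *Cldn5* (563 UMIs), with *Cdh5* at 0, and their part was not tested.

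**Figure D4:**
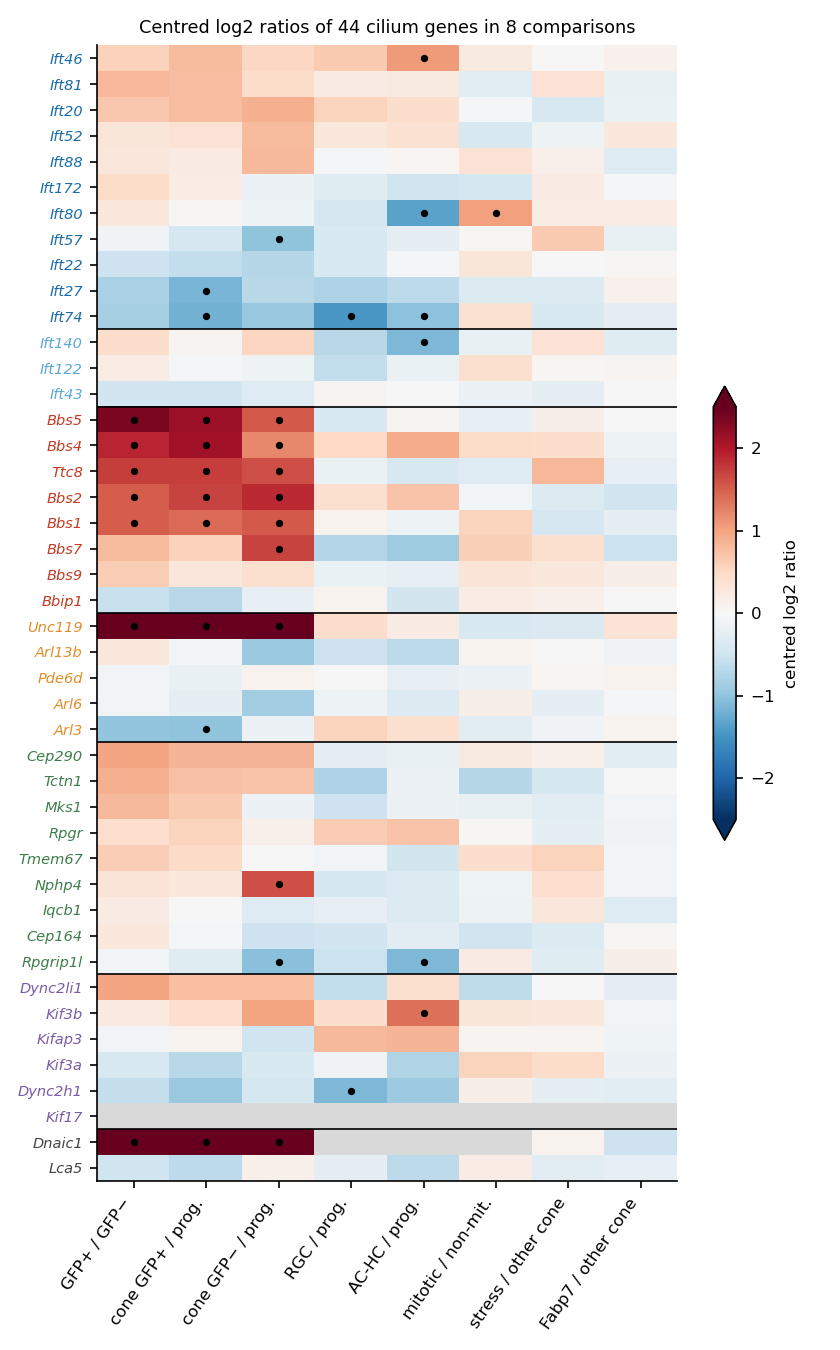
Centred log2 ratio of CPM (colour, limited to 2.5 in either direction) of 44 cilium genes (rows, by role) in 8 comparisons (columns), with dots past 2-fold and grey where a gene had under 30 UMIs. The block of BBSome genes, *Unc119* and *Dnaic1* is coloured in the first 3 columns, and few dots stand in the other 5.

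Cilia are taken apart before division, so the progenitor-marker cells were split by mitotic markers. Of 42 members *Ift80* alone was past 2-fold higher in the 657 mitotic-marker over the 663 non-mitotic cells, with 15.2 CPM (100 UMIs) and 7.54 CPM (43 UMIs), a ratio of 1.03 (0.51 to 1.59), and 0 were lower. Over all genes 3.38% were higher and 1.85% lower. The call was lost with thinned cells and without the upper limit on genes.

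Among cone-marker GFP+ cells, 223 with at least 3 UMIs of 7 stress genes and, of the rest, 773 with at least 2 UMIs of *Fabp7* were compared with the other 2603. No member was past 2-fold in either, against 3.93% higher and 3.21% lower of 11126 genes for the stress group and 1.25% and 1.89% of 11404 genes for the *Fabp7* group, where 39.9% of the genes past 2-fold were higher with centring and 26.5% without. *Ttc8* had 142.5 CPM (119.9 to 168.0) in the stress group and 77.9 CPM (72.5 to 83.5) in the other cells. *Dnaic1* had 180.8 CPM (167.4 to 194.9) in the *Fabp7* group and 277.6 CPM (267.5 to 288.0) in the other cells, and at 3200 UMIs per cell a UMI in 39.7% and 53.1% of them. *Unc119* ran the other way, with 1033 and 874.4 CPM.

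Further cilium genes in lists written for this comparison placed the members among their pathway. Between cone-marker GFP+ and progenitor-marker cells, 10 of 16 genes of the photoreceptor cilium and outer segment were higher and 1 lower, with a median of 2.83. *Rpgrip1*, which tethers RPGR in the connecting cilium, had 472.9 and 1.86 CPM, *Cdhr1*, a cadherin at the outer segment base, 323.7 and 0.193 CPM, *Tulp1*, a trafficking factor, 212.7 and 4.56 CPM, and *Prom1*, a protein of membrane protrusions, 131.3 and 23.7 CPM. Lists of genes with roles in any cilium had fewer genes past 2-fold. Of 16 further IFT and dynein-2 genes 1 was higher (*Ttc30b*, 1.46) and 2 lower (*Tctex1d2*, -1.35, and *Hspb11*, -1.14), with a median of 0.14. Of 6 further BBSome and chaperonin-like genes none was past 2-fold (median -0.11), and of 29 further transition zone and basal body genes 0 were higher and 5 lower (median -0.50), among them *Tmem107* (-1.63), *Sclt1* (-1.48), *Cep83* (-1.39) and *Cep41* (-1.38).

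Motile cilium genes were asked about because of *Dnaic1*. Of 20 listed, 8 had enough UMIs, 3 were higher and 3 lower, with a median of -0.48. *Rsph1*, a radial spoke gene, had 0.937 CPM in cone-marker GFP+ and 51.7 CPM in progenitor-marker cells, *Tekt1*, a tektin, 1.87 and 30.6 CPM, *Ccdc40* 4.22 and 6.88 CPM, and *Ccno*, a regulator of centriole amplification, 9.57 and 2.06 CPM. *Foxj1*, the main transcription factor of motile cilia, had 9 UMIs (0.602 CPM) and 20 UMIs (1.29 CPM), too few to be compared. *Dnaic2*, the usual partner of *Dnaic1* in the outer dynein arm, had 32 UMIs (2.14 CPM) and 6 UMIs (0.386 CPM) and was higher (1.98). The highest ratio among the 8 was 2.63, of *Mcidas* with 27 and 3 UMIs, against a bound of at least 9.97 for *Dnaic1*.

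Of 5 RFX factors 3 were higher, *Rfx5* (2.91), *Rfx3* (1.13) and *Rfx1* (1.06), and *Rfx2* was lower (-2.67). *Rfx3*, known for its part in building cilia, had 45.3 CPM in cone-marker GFP+ and 15.7 CPM in progenitor-marker cells. Within the GFP− library only *Rfx1* of 4 RFX factors was past 2-fold higher in cone-marker cells (2.21, from 11 UMIs), and *Rfx5* had too few UMIs to be compared. Of 12 genes of ciliary membrane traffic *Rab3ip*, an activator of RAB8, was higher (1.48) and *Gpr161*, a ciliary receptor that restrains Hedgehog signalling, lower (-2.51). Of 9 genes of cilium disassembly 0 were higher and 4 lower, *Plk1* (-5.96), *Nek2* (-6.24), *Nedd9* (-3.64) and *Aurka* (-2.45), most of which also act in mitosis.

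**Figure D5:**
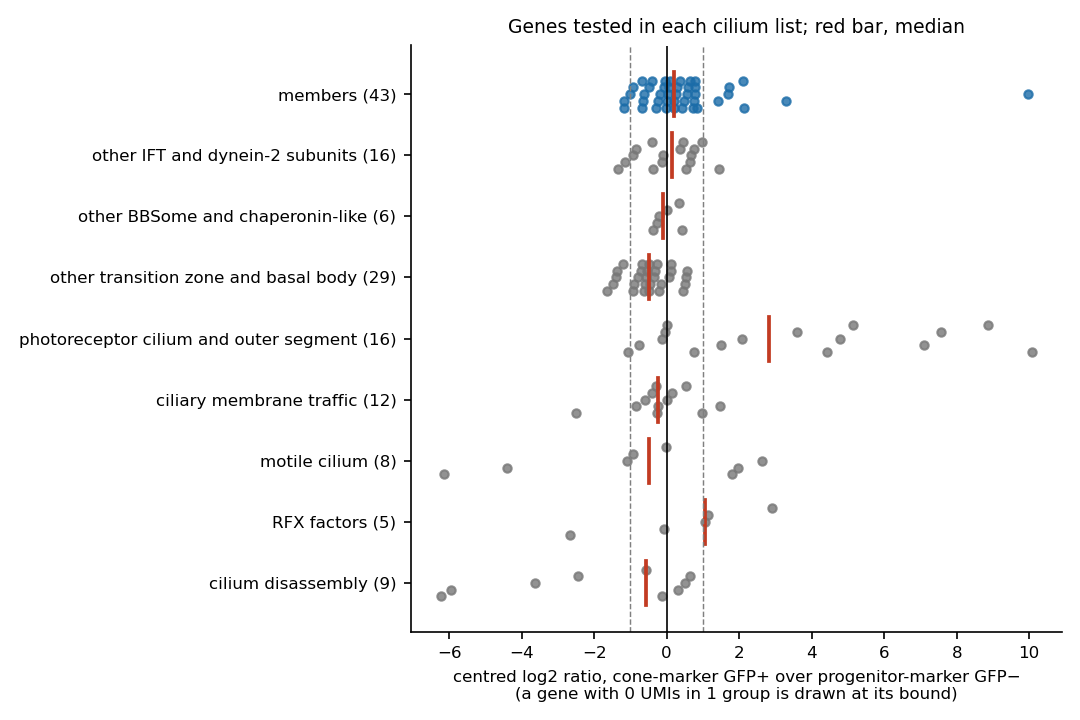
Centred log2 ratio of CPM (x axis) in cone-marker GFP+ over progenitor-marker GFP− cells for each gene with enough UMIs (points; the 43 members in blue, 8 further lists in grey, on the y axis), with a red bar at each median, dashed lines at 2-fold and genes at 0 UMIs in 1 group drawn at their bound. The photoreceptor cilium list has a median of 2.83 and the members one of 0.21, while the further IFT and transition zone lists have medians of 0.14 and -0.50.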

How the data were processed

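The authors deposited raw UMI counts of each gene in each called cell, and the submitters' processing notes name Cell Ranger 2.1.1 and mm10 (GRCm38). The libraries were made with a kit that reads the 3′ end, so no difference in level is read between genes. Cells with over 250 and under 3500 genes and a mitochondrial fraction below 0.25 were kept, as the study's methods state, with its limit read as a fraction. Scrublet called 3 GFP+ and 55 GFP− cells doublets, which is too few in the GFP+ library for the call to be relied on there, and the 2 among kept cells were left in.

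Cells were grouped by markers with a UMI: at least 3 of 7 cone, 3 of 9 RGC or 2 of 5 AC/HC markers, then 2 of 5 neurogenic or 3 of 6 progenitor markers. Those meeting several of the first 3 were left out. UMIs were summed per group and given as CPM with 95% exact Poisson intervals. Log2 ratios had 0.5 added to both sums, with exact conditional binomial intervals, for genes with at least 30 UMIs. A sum of 0 was bounded by 3 counts over the group. Shares were read in cells thinned to 3200 UMIs, leaving out shallower cells. As there was 1 library per gate, no p-value was computed.

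Named were members past 2-fold, the 5 highest and lowest of the first 2 comparisons, the member with most UMIs of each role group, and at most 4 genes past 2-fold of each further list. *Dnaic2*, *Foxj1*, *Mcidas*, *Enho* and other members were named after their values were seen. Members and lists were chosen with earlier results of these data known. Ratios and intervals were run on simulated Poisson counts, the error that the intervals assume, with fewer genes changed than in the data. Spread between cells or libraries was therefore not covered. Alternatives were other filters, thresholds, marker rules, thinned cells, per-cell means and TMM factors (edgeR 4.0.16), and UMIs per cell was added after seeing the data. Python 3.11.15, numpy 2.4.6, pandas 2.3.3, scipy 1.17.1 and scanpy 1.11.5 were used.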

Additional observations from a re-analysis of the deposited data

How the results depend on the processing

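With 1 library per gate there was no replicate to leave out. No paired analysis was possible because each gate had 1 library. Of the counts of members past 2-fold, 61 values under the alternatives stayed within 1.5 times those reported and 20 did not. A count does not show direction or which genes passed. The share of all genes that passed under each alternative is not given here, so the counts below are not set against it. For the GFP+ over GFP− comparison the 7 members past 2-fold became 12 without the upper limit on genes per cell, 13 without centring, 20 at 1.5-fold and 13 as UMIs per cell, a scale added after seeing the data. On that scale 4 were higher and 9 lower, *Bbs1*, *Bbs2* and *Ttc8* were lost, and 16 members changed sign. Of all genes past 2-fold on it 14.3% were higher. More UMIs per GFP+ cell were read for 13 of 43 members and for 2684 of 13590 genes. For cone-marker GFP+ over progenitor-marker cells 10 became 22 at 1.5-fold and 16 as UMIs per cell, where 4 were higher and 12 lower and 15 members changed sign. For cone-marker GFP− over progenitor-marker cells 11 became 6 with a minimum of 100 UMIs, 23 at 1.5-fold and 17 with 1 more marker asked. For RGC-marker cells 2 became 11 at 1.5-fold and 5 with 1 more marker, and for AC/HC-marker cells 6 became 16 and 10. With thinned cells the 2 higher and 4 lower in AC/HC-marker cells became 4 and 3. For mitotic-marker cells 1 became 0 without the upper limit, 0 with thinned cells and 4 at 1.5-fold. For the stress group 0 became 1 with thinned cells, 1 with no minimum and 2 at 1.5-fold, and for the *Fabp7* group 0 became 1 with no minimum. The higher counts at 1.5-fold follow from the lower threshold, and for the rest the cause was not tested. *Arl3* was within 2-fold of progenitor-marker cells without the upper limit and with TMM factors, and *Arl3*, *Ift27* and *Ift74* were within it without centring.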
